A study of Drosophila melanogaster with 9 samples.

Results

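The 80S monosome libraries of adult fly heads were compared with the total RNA of the lysates they came from. The comparison uses 6 of the 9 samples, 3 per group, chosen by their labels and paired by replicate number. The 3 polysome libraries are given beside them only for the share an RNA took there. Shares within fractions do not show how the molecules of an mRNA were divided over the gradient. Of the 23932 features in the gene table, 13907 were nuclear protein-coding genes, of which 10411 had enough counts to be tested.

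An 80S monosome is a single complete ribosome on an mRNA, or a ribosome with no mRNA at all, and it sediments in sucrose ahead of free ribosomal subunits and behind polysomes, the strings of ribosomes that load one mRNA. An mRNA that is initiated rarely, or that is read through quickly because its coding sequence (CDS) is short, tends to carry one ribosome at a time, and a long CDS gives room for many. Free RNA-protein particles that sediment at the same rate collect in the same fractions as monosomes.

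All libraries came from untreated wild type Dahomey flies, adults of up to a few days of age, whose heads were broken off after freezing and pooled, so that every library holds RNA from brain, eye, glia, fat body and muscle of many animals. The lysate contained detergent and cycloheximide, which stops elongating ribosomes. A small part of the lysate was kept as total RNA and the rest was spun through sucrose, where the fractions under the 80S peak were combined. Cytoplasmic ribosomal RNA was depleted from all samples by the same kit. The labels do not say whether a replicate number stands for a separate batch of flies, so the p-values below measure the spread between these preparations.

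The 80S monosome libraries held between 2.02068e+07 and 4.40966e+07 counts and the total RNA libraries between 3.02202e+07 and 3.18494e+07. Levels are given in CPM, counts scaled to the library total after correction by the trimmed mean of M-values (TMM), in the order of replicates 1, 2 and 3. No spike-in was described, so that higher or lower always means a larger or smaller share of the RNA sequenced from a fraction, never an amount of RNA per ribosome. Libraries of the same number deviated from their group means in the same direction (correlations of 0.18 to 0.42 over 9 pairs of libraries), and the tests therefore carried the replicate number as a block.

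The head was recognisable in both fractions. The neuronal genes elav and nSyb, the photoreceptor gene ninaE and the glial gene repo were all detected in every library. Of the 20 marker genes of neurons, photoreceptors, glia, fat body and muscle, 4 were higher, 9 were lower and 7 did not pass the test in 80S monosomes, with both directions found within neurons, photoreceptors, glia and muscle. Total RNA and 80S monosomes were parts of the same lysates, so these changes do not measure numbers of cells. In bulk libraries the cell types in which an mRNA sat on single ribosomes cannot be told apart.

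Many head mRNAs had a different share in 80S monosomes than in the lysate, in both directions. At an adjusted p under 0.01 (edgeR quasi-likelihood test, Benjamini-Hochberg over all 13076 features tested), 1687 nuclear protein-coding genes were higher in 80S monosomes, 16.2% of those tested, and 1951 were lower, 18.7%. The changes were small: the median called change was 1.38-fold up and 1.45-fold down, and 103 genes were at least 2-fold higher and 200 at least 2-fold lower. All but 1 of the genes called higher, and all but 1 of those called lower, moved in the called direction in all 3 pairs. The 3 monosome values lay outside the range of the 3 total RNA values for 1587 genes called higher and 1724 called lower. Over all nuclear protein-coding genes tested, 23.3% lay wholly above and 24.3% wholly below total RNA. Without the replicate number in the fit, 689 genes were higher and 764 lower, every one of them also called in the same direction with it. With 1 library left out, the count of genes higher fell as low as 1126 (without total RNA library 2) and that of genes lower as low as 1460 (without 80S monosome library 2), and no gene changed from higher to lower or back under any of these. Without all 3 libraries of replicate 2, 1098 genes were higher.

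Among genes averaging at least 10 CPM, the mRNAs that gained most in 80S monosomes include those of cytoskeletal and signalling proteins. A bare value in brackets after a gene is its log2 fold change of 80S monosomes over total RNA, and ± is the standard error (SE). Pif1B and Pif1A, which encode interaction partners of a PFTAIRE kinase, overlap on the same strand (chromosome 3R, 8774286 to 8801176) and share their reads, so they are 1 observation. Pif1B stood at 1112, 800.4 and 870.3 CPM in total RNA and 4017, 2862 and 2963 CPM in 80S monosomes, a log2 fold change of 1.82 ± 0.09 (SE; 3.53-fold, adjusted p = 2.54e-11). The 3 monosome libraries were all more than 3-fold above their own total RNA. form3, an actin-nucleating formin (chromosome 3L, 7094818 to 7123297), rose from 252, 186 and 229 CPM to 931, 483 and 555 CPM (log2 1.51 ± 0.09, adjusted p = 4.11e-10). Fhos, the formin that shapes sarcomeres in flight muscle, rose by log2 1.41 ± 0.09 (adjusted p = 5.87e-10). A transposable element copy and another gene lie on its strand, and the counting splits reads over such overlaps. In both formins the first monosome library was the highest and no monosome library reached down to the total RNA.

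Sarm, the fly SARM1, an NAD-consuming enzyme that drives axon degeneration (chromosome 3L, 8063874 to 8108897), was one of the most abundant genes to gain. It stood at 1199, 803 and 894 CPM in total RNA and at 3562, 1942 and 1988 CPM in 80S monosomes (2.52-fold, log2 1.33 ± 0.08, adjusted p = 4.92e-10). In polysomes it stood at 1589, 874 and 1002 CPM, close to total RNA (log2 0.23, adjusted p = 0.0275, which misses the threshold). mud, the fly NuMA homologue that orients spindles, rose by log2 1.37 ± 0.11, and wisp, a cytoplasmic poly(A) polymerase known from the oocyte, by log2 1.64 ± 0.09. Both were scarce in the head, and both missed the threshold when the replicate block was dropped. wisp stood at 10.8, 14.3 and 26.1 CPM in total RNA and 40.4, 42.0 and 73.3 CPM in 80S monosomes. The other genes among the 10 largest increases were CG9902 (1.39), CG42390 (1.37) and CHKov1 (1.56), the last with a transposable element copy annotated inside it. CHKov1, at 410 codons, was the only one of the 10 with a CDS under 1000 codons.

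Of the 10 mRNAs that lost most among those averaging at least 10 CPM, all but hiw and para had CDSs of at most 142 codons. Below that level, Muc14A, of 16223 codons, was lower by log2 -1.75 ± 0.20. RpL38, a protein of the large ribosomal subunit with 70 codons, fell from 85.6, 83.2 and 84.1 CPM in total RNA to 16.5, 16.4 and 19.9 CPM in 80S monosomes (4.77-fold lower, log2 -2.25 ± 0.10, adjusted p = 5.31e-12). RpS29, with 56 codons, fell from 358, 336 and 373 CPM to 99.6, 114 and 106 CPM (log2 -1.75 ± 0.09, adjusted p = 8.17e-11). A small RNA lies on the strand of RpS29 and may share reads with it. The values of both genes were tight within each fraction and far apart between them. CG7214, an abundant mRNA of 142 codons, fell from 1154, 1408 and 1357 CPM to 253, 394 and 376 CPM (log2 -1.96 ± 0.09, adjusted p = 5.31e-12).

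CG11368, CG13606, CG17298, CG11458 and CG16926 have CDSs of 65, 116, 95, 98 and 127 codons and log2 changes of -1.78, -1.73, -1.59, -1.71 and -1.97. CG11458 missed the threshold without the replicate block, and CG16926 missed it without total RNA library 1 (adjusted p = 0.0178). All 5 were lower in 80S monosomes in each pair. They were lower in polysomes too, by log2 changes of -0.72, -1.90, -1.53, -0.73 and -1.05.

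The remaining 2 of the 10 largest decreases were hiw and para. hiw, the ubiquitin ligase Highwire that restrains synapse growth, has 5233 codons (chromosome X, 15010137 to 15063429). It stood at 269, 259 and 252 CPM in total RNA, 98.3, 80.0 and 76.5 CPM in 80S monosomes and 639.9, 405 and 476 CPM in polysomes. It was thus lower on single ribosomes (log2 -1.63 ± 0.09, adjusted p = 9.45e-11) and higher on many (log2 0.94, adjusted p = 6.88e-08), with no overlap between any of the 3 fractions. para, the voltage-gated sodium channel of action potentials (2097 codons, chromosome X, 16455027 to 16533096), had the same order, with 933, 829 and 851 CPM in total RNA, 326, 242 and 291 CPM in 80S monosomes and 1444, 1102 and 1519 CPM in polysomes (log2 -1.62 ± 0.09 for 80S monosomes, adjusted p = 3.07e-11). Of 158 genes with CDSs of over 2000 to 3000 codons, the length group of para, 92 were higher and 13 lower. Both genes hold transposable element copies on their strand.

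**Figure D1:**
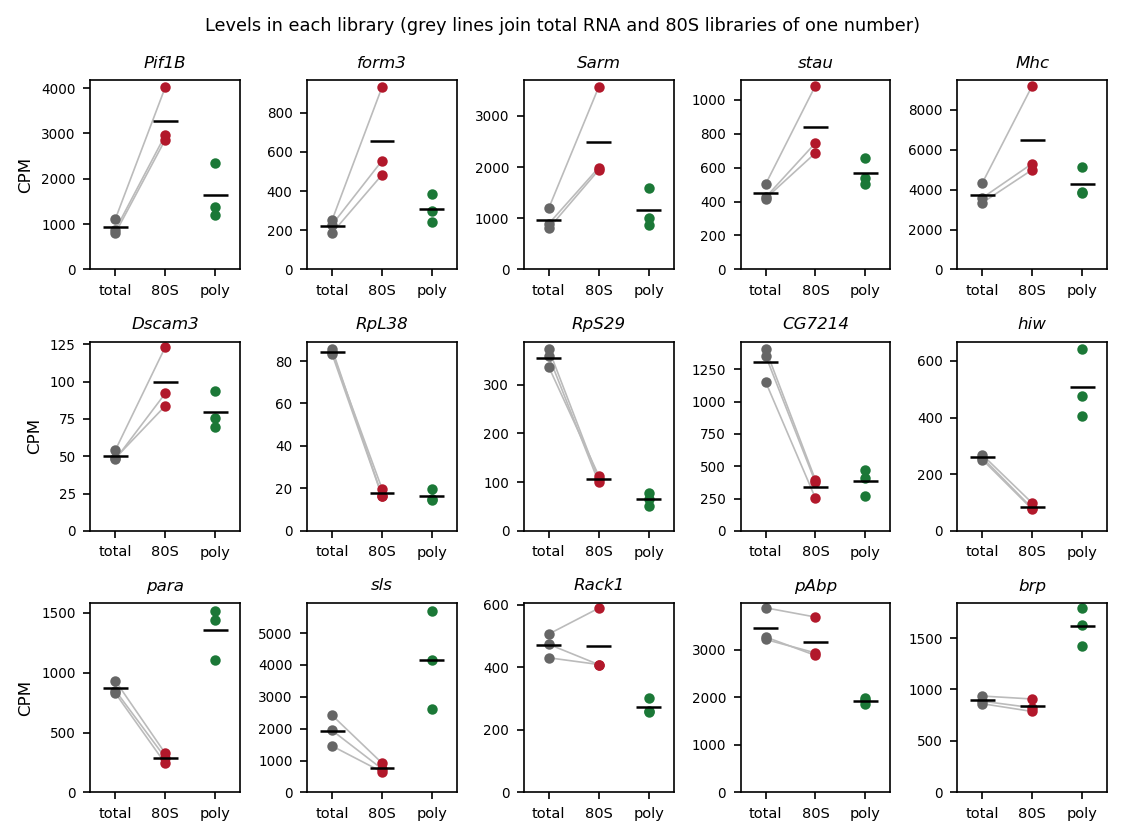
Levels of single genes in CPM (y axis, from 0) in the total RNA (grey), 80S monosome (red) and polysome (green) libraries. Each point is 1 library, black bars are means and grey lines join libraries of one replicate number. Pif1B, form3, Sarm, stau, Mhc and Dscam3 lie above total RNA in 80S monosomes; RpL38, RpS29 and CG7214 lie below it in both ribosomal fractions; hiw, para and sls lie below it in 80S monosomes and above it in polysomes; Rack1, pAbp and brp overlap or nearly overlap between total RNA and 80S monosomes.

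The log2 fold change varied with the length of the CDS, taken as the median over a gene's annotated transcripts. Genes called higher had a median CDS of 966 codons (quartiles 644 and 1335), genes called lower 254 (154 and 418) and the others 431 (270 and 625). These are descriptions over genes, which are not replicates, and genes called either way were also more abundant (medians of 60.5 and 31.4 CPM) than the others (9.40 CPM). The relation had a hump. The median log2 fold change was -0.42 for CDSs of up to 100 codons and -0.45 for over 100 to 150 codons, passed 0 between 400 and 800 codons, and peaked at 0.42 for over 1500 to 2000 codons. It then came down to 0.35 for over 2000 to 3000 codons, -0.14 for over 3000 to 5000 and -0.77 above 5000.

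The calls followed the same course. Of 637 genes with over 100 to 150 codons, 12 were higher and 280 lower. Of 274 with over 1500 to 2000 codons, 187 were higher, 68.2% against 16.2% of all genes tested, and 13 lower. All 17 genes over 5000 codons were lower and 0 were higher by edgeR (0 at an unadjusted p under 0.05, and 0 by DESeq2). Each of the 3 pairs showed the hump: pair medians were -0.54, -0.38 and -0.35 for over 100 to 150 codons, 0.56, 0.35 and 0.31 for over 1500 to 2000, and -0.71, -0.83 and -0.77 above 5000. The first pair lay farthest from 0 in the first 2 of these groups.

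Polysomes, measured against the same total RNA libraries, had no such turn. Their median log2 fold change was -0.45 for over 100 to 150 codons, 0.53 for over 1500 to 2000, 0.89 for over 3000 to 5000 and 0.99 above 5000. In shares of all nuclear protein-coding counts, CDSs of up to 150 codons took 7.80% ± 0.241 of total RNA and 5.84% ± 0.597 of 80S monosomes (SD, n = 3). CDSs of over 1000 to 2000 codons took 19.2% ± 0.457 and 24.2% ± 1.93. CDSs over 5000 codons took 2.61% ± 0.255, 1.42% ± 0.0800 and, in polysomes, 4.75% ± 1.01. In each of these 3 length groups the 80S monosome and total RNA libraries did not overlap. The exact two-sided permutation p was 0.1 for each, the smallest that 3 against 3 allows. This permutation, here and below, did not keep the pairing by replicate number.

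**Figure D2:**
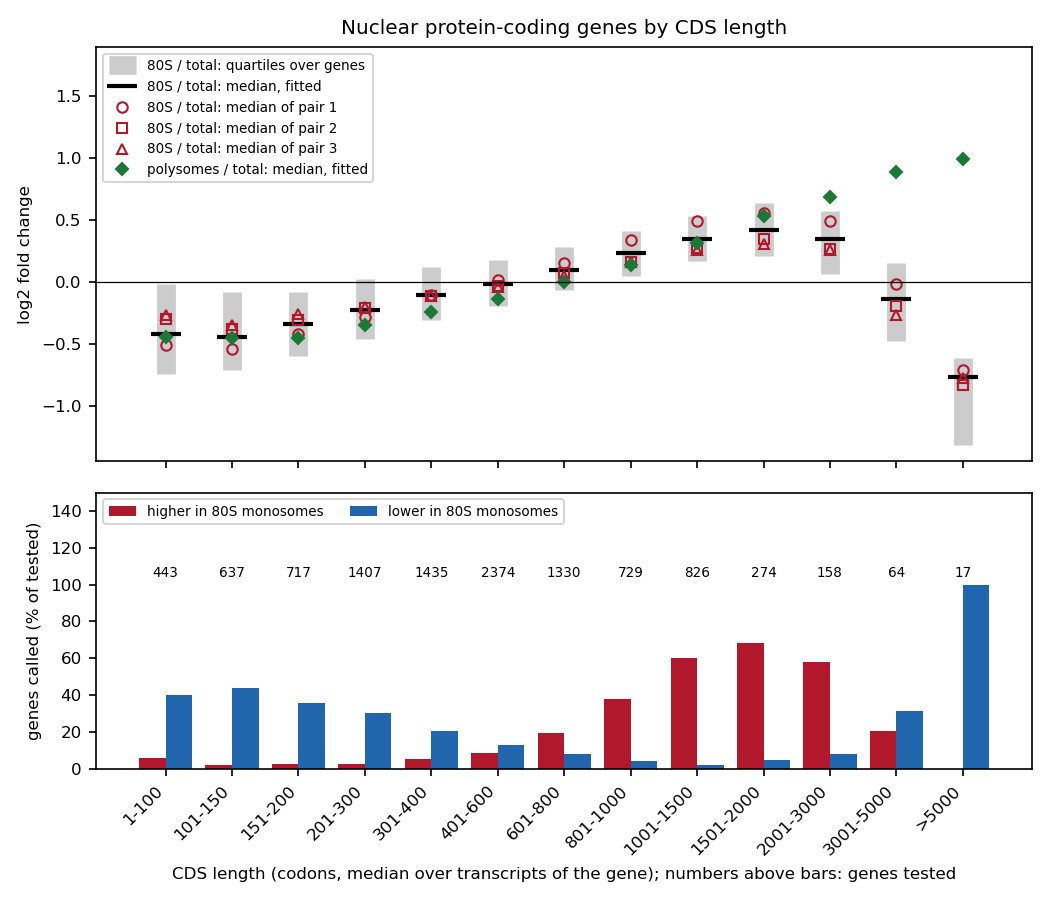
Top, log2 fold change against total RNA (y axis) for nuclear protein-coding genes grouped by CDS length in codons (x axis): grey bars are the quartiles and black lines the medians over genes in 80S monosomes, open red symbols the medians of the 3 pairs, green diamonds the medians in polysomes. Bottom, the percent of genes called higher (red) or lower (blue) in 80S monosomes, with the number tested above. The monosome medians climb to over 1500 to 2000 codons and then turn down, with all 17 genes over 5000 codons lower, while the polysome medians keep climbing.

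The 17 giants over 5000 codons were lower in 80S monosomes in every pair, by log2 changes of -0.30 to -1.75, and stood between 0.53 and 1.08 in polysomes. They include sls, the titin-like spring of muscle (2419.8, 1456 and 1945 CPM in total RNA, 922, 644 and 738 CPM in 80S monosomes, 5689.7, 2617 and 4142 CPM in polysomes), and Msp300, the nesprin that anchors muscle nuclei (log2 -1.52 ± 0.09). The ranges of sls in 80S monosomes and total RNA did not overlap, although its total RNA level differed between preparations. The least depleted was futsch, the microtubule-associated protein of axons, at -0.30 ± 0.08 (adjusted p = 0.00604). Also in this group were spen (-1.34), a transcriptional corepressor, kis (-0.98), a chromatin remodeller, shot (-0.77), a spectraplakin linking actin to microtubules, and dpy (-0.63), an extracellular matrix protein. Just below 5000 codons, the ubiquitin ligase HERC2 (4912 codons) fell from 294, 259 and 281 CPM to 109, 99.2 and 98.8 CPM and stood at 835, 482 and 571 CPM in polysomes (log2 -1.44 ± 0.10 for 80S monosomes, adjusted p = 1.78e-08).

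A few genes went against their length, and these were picked after their values were seen. Of 31 genes of over 1000 to 2000 codons that were lower, 16 had at least 10 CPM and no other annotated feature on their strand. mei-P26, a TRIM-NHL translational repressor with 1197.5 codons, fell most, from 1470.5, 1410.2 and 1317 CPM to 548, 468 and 506 CPM (log2 -1.47 ± 0.08, adjusted p = 5.71e-11). The rest include cac (-0.51), the presynaptic calcium channel, eag (-0.37), a potassium channel, RhoGAP100F (-0.64) and Rim (-0.26), organisers of the active zone, and Atpalpha (-0.36), the sodium pump. Their log2 changes in polysomes were 0.56 for mei-P26, 0.82 for eag, 1.01 for RhoGAP100F, 0.70 for Rim and -0.14 for Atpalpha. In the other direction, 39 genes of up to 150 codons were higher, of which 8 passed the same 2 conditions, among them CG14823 (1.01), the carrier protein Obp99b (0.46) and COX7C (0.40), a subunit of cytochrome c oxidase. COX7C stood at 81.3, 79.5 and 79.9 CPM in total RNA and 108, 99.6 and 109.9 CPM in 80S monosomes and missed the threshold without total RNA library 2 (adjusted p = 0.0222).

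The untranslated regions (UTRs) of the called genes also differed in length. The median 5′ UTR was 288 nt in genes called higher, 145 nt in those called lower and 138 nt in the rest, and the median 3′ UTR was 419, 299 and 205 nt. With genes put into 10 equal groups by 5′ UTR length, the median log2 fold change went from -0.11 to 0.13, from the shortest to the longest group, and by 3′ UTR length from -0.03 to 0.07. By CDS length it went from -0.43 to 0.36. The lengths of the 3 regions go together in the annotation, and their parts in the result were not tested.

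The mRNAs of the translation machinery moved in both directions. Ribosomal protein mRNAs, which in animals are translated under growth control, were lower as a group: of 86 genes tested, 71 were lower (46 without the replicate block) and 0 higher by edgeR (1 at an unadjusted p under 0.05, 0 by DESeq2), with a median log2 fold change of -0.57 against -0.02 over all nuclear protein-coding genes. Their summed level was 22507 to 26214 CPM in total RNA and 14853 to 19793 CPM in 80S monosomes, so that the fractions did not overlap. In polysomes their median was lower still, at -1.24.

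The decrease was graded by CDS length among the ribosomal proteins themselves. Of 37 with up to 150 codons, 36 were lower (median -0.66, against -0.42 for the other 1043 genes of that length). Of the 30 next longer ones, 25 were lower (median -0.55 against -0.30). Of 19 longer ones, 10 were lower (median -0.28 against -0.11). The longest member, RpL4, was also the most abundant and did not pass the test, with 714, 591 and 659 CPM in total RNA and 799, 549.6 and 592 CPM in 80S monosomes (log2 -0.03 ± 0.08). Ribosomal protein genes often host small nucleolar RNAs, and a few exist as pairs, such as RpS14a and RpS14b. Reads shared with those are split by the counting. Rack1, a protein of the small subunit and a signalling scaffold, stood at 506, 429.97 and 473 CPM in total RNA and 588, 409 and 408 CPM in 80S monosomes, which overlap (log2 -0.02 ± 0.08, adjusted p = 0.853).

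Initiation factors moved both ways, with 8.11% of those tested higher and 32.4% lower, against 16.2% and 18.7% of all nuclear protein-coding genes. Of 37, 3 were higher and 12 lower (2 and 2 without the block, 5 higher without 80S monosome library 3, and 4 lower without 80S monosome library 2), with a median of -0.15. The genes that rose were eIF5B, which joins the ribosomal subunits (99.3, 92.5 and 96.9 CPM in total RNA, 228, 154 and 152 CPM in 80S monosomes, log2 0.86 ± 0.09, adjusted p = 2.31e-07), eIF3a (0.80 ± 0.09) and eIF3c (0.51 ± 0.08), large subunits of the scaffold that loads the small ribosomal subunit. The small eIF3 subunits eIF3k and eIF3f1 fell by 0.57 and 0.51 on the log2 scale, and eIF4E1, the cap-binding protein, went from 184, 200.3 and 197 CPM to 118, 132 and 134 CPM (log2 -0.60 ± 0.06, adjusted p = 3.69e-07). eIF3c, eIF3k and eIF3f1 missed the threshold without the block. The mRNAs of 1 complex thus lay on both sides of 0.

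Elongation factor eEF1beta, the nucleotide exchange factor, fell to 103, 65.6 and 68.3 CPM from 139.95, 118 and 134 CPM (log2 -0.75 ± 0.10), and eEF5, the hypusine-bearing factor, also fell (log2 -0.64 ± 0.07). Of the 10 elongation and release factors 3 were lower and 0 higher by edgeR (1 at an unadjusted p under 0.05, 0 by DESeq2; median -0.07). Without the block 2 were lower, and with 1 library left out 2 to 4 were lower and 0 to 1 higher. The third gene called lower, eEF1alpha1, missed the threshold in 9 of 20 settings. Tctp, a growth-related protein of 172 codons whose mRNA is translated like those of ribosomal proteins in mammals, fell from 416, 379 and 380.3 CPM to 313, 227 and 231 CPM (log2 -0.62 ± 0.09, adjusted p = 1.01e-05). pAbp, the poly(A)-binding protein, had 3888, 3222 and 3274 CPM and 3693, 2938 and 2885 CPM, overlapping ranges (log2 -0.13 ± 0.08, adjusted p = 0.197).

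Aminoacyl-tRNA synthetases, which charge tRNAs, went the other way. Of 35, 11 were higher (4 without the block, 6 without total RNA library 2 and 5 without total RNA library 3) and 0 lower by edgeR (1 at an unadjusted p under 0.05, 0 by DESeq2), with a median of 0.16. The share higher, 31.4%, compares with 16.2% of all nuclear protein-coding genes tested. The median CDS of the list was 607 codons. Of all genes of over 600 to 800 codons, 19.2% were higher, with a median of 0.10. The part of CDS length in the list's increase was not tested. GluProRS, the fused synthetase for glutamate and proline, rose from 91.4, 94.2 and 97.0 CPM to 206, 149.9 and 148 CPM (log2 0.82 ± 0.09, adjusted p = 5.96e-07), and MetRS by log2 0.45 ± 0.09. The 80S monosome values of both lay wholly above total RNA.

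Proteins that repress or store mRNAs, and those that clear stalled ribosomes, were also mostly higher where they were called. Of 38 repressor and granule genes, 15 were higher and 5 lower (9 and 3 without the block), with a median of 0.09. Their shares, 39.5% and 13.2%, compare with 16.2% and 18.7% of all nuclear protein-coding genes tested. stau, which carries localised mRNAs, rose from 501, 424 and 418 CPM to 1083, 745 and 686 CPM (log2 0.88 ± 0.08, adjusted p = 7.72e-08), pcm, the 5′ to 3′ exonuclease of decapped mRNA, by log2 0.71 ± 0.09, and larp, which binds capped mRNAs with oligopyrimidine starts in mammals, from 1214, 1092 and 1123 CPM to 1776, 1475 and 1488 CPM (log2 0.46 ± 0.07). Thor, the short 4E-BP that blocks the cap-binding protein, fell from 145, 173 and 147 CPM to 84.1, 103 and 97.1 CPM (log2 -0.71 ± 0.07, adjusted p = 8.37e-08), as did the Y-box protein yps (-0.50). Of 10 genes of nonsense-mediated decay and ribosome rescue, 3 were higher (1 without the block, and 1 without total RNA library 2 or 3; median 0.23) and 0 lower by edgeR (0 at an unadjusted p under 0.05, 0 by DESeq2). The shares of this list, 30% higher and 0% lower, compare with the same 16.2% and 18.7%. The clearest of the genes called higher was Clbn, which tags stalled nascent chains (0.42 ± 0.08, adjusted p = 2.22e-04).

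Among 12 mRNAs of the integrated stress response and others with regulatory reading frames, 3 were higher and 4 lower (1 and 4 without the block). That is 25% and 33.3%, against 16.2% and 18.7% of all nuclear protein-coding genes tested, and the median was -0.01. crc, the fly ATF4, whose upstream reading frames hold back its translation, fell from 792, 754 and 734 CPM to 450.3, 528 and 446 CPM and stood at 300.1, 341 and 311 CPM in polysomes (log2 -0.68 ± 0.08 for 80S monosomes, adjusted p = 6.29e-07). Oda, the antizyme whose CDS is completed by a frameshift, fell from 764, 852 and 767 CPM to 332, 474 and 383 CPM (log2 -1.02 ± 0.08). Other annotated features lie on the strands of both. The transcription factor Atf3 rose from 246, 215 and 218 CPM to 345, 311 and 330.3 CPM (log2 0.54 ± 0.07, adjusted p = 2.61e-06), above its polysome level of 279.5, 246 and 275 CPM.

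**Figure D3:**
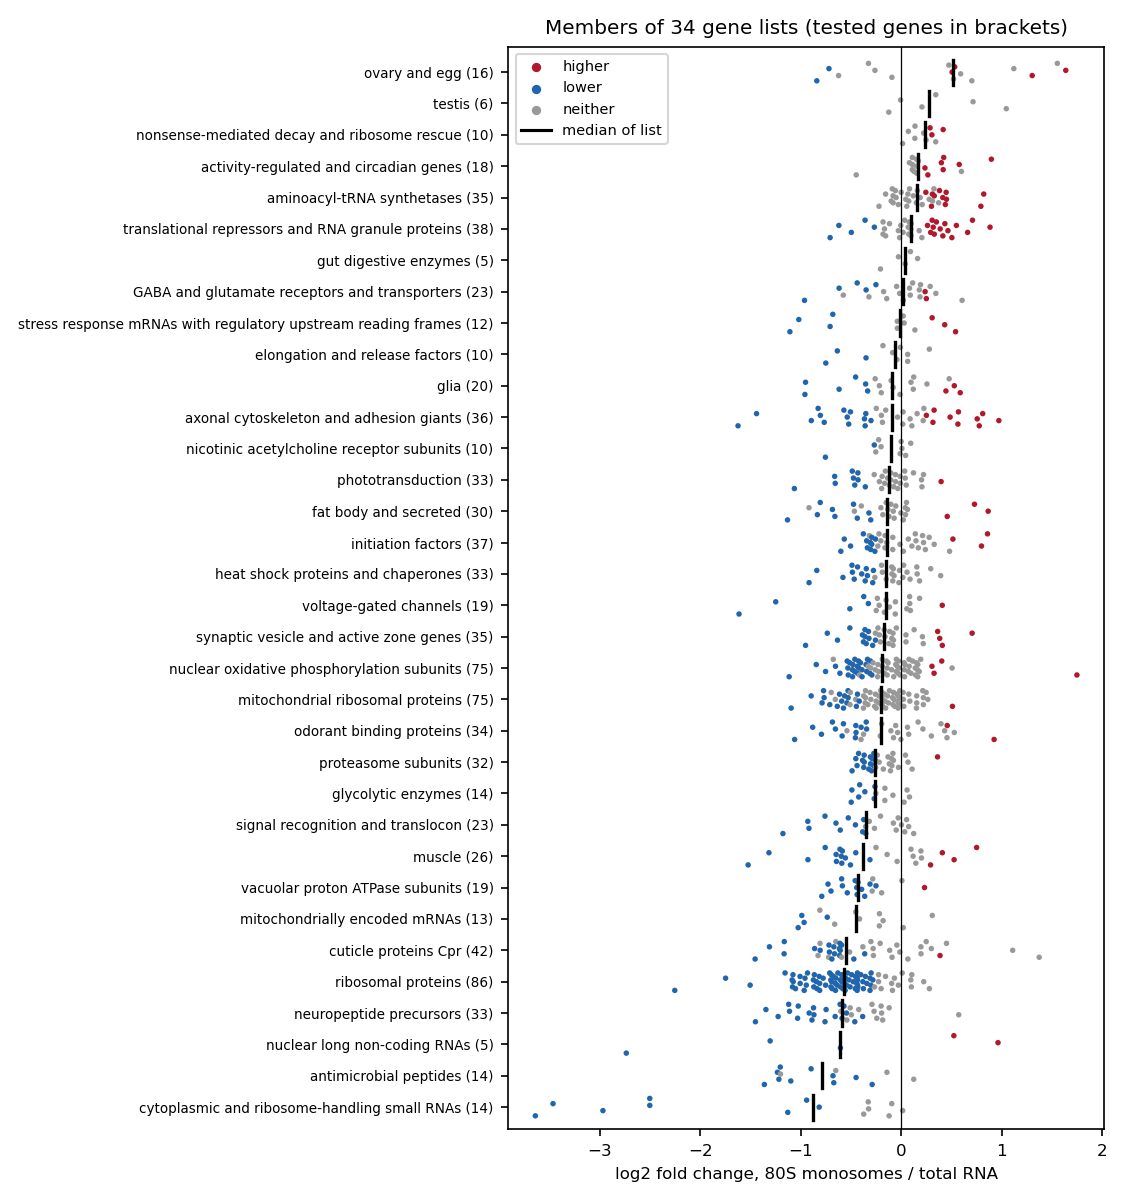
Log2 fold change in 80S monosomes against total RNA (x axis) for each tested member of 34 gene lists (rows, ordered by median; number tested in brackets). Each point is 1 gene, red where called higher, blue where called lower, grey otherwise, and black ticks are list medians; points are spread vertically only to show them. Ribosomal proteins, neuropeptide precursors, antimicrobial peptides and small RNAs lie mainly below 0, and the aminoacyl-tRNA synthetases and nonsense-mediated decay genes mainly above it.

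In energy metabolism and protein turnover more mRNAs were called lower than higher. Over all nuclear protein-coding genes tested the shares were 18.7% and 16.2%. Lower were 36% of respiratory chain, 73.7% of vacuolar ATPase, 50% of glycolytic, 47.8% of translocon, 39.4% of chaperone and 50% of proteasome genes. The shares higher were 5.33%, 5.26%, 0%, 0%, 0% and 3.1%, in the same order. Of 75 nuclear subunits of the respiratory chain and ATP synthase, 27 were lower and 4 higher (5 and 1 without the block; 17 lower without total RNA library 1, and 1 or 2 higher without total RNA library 2 or 3; median -0.19). COX5B fell from 113, 127 and 112 CPM to 44.4, 66.7 and 53.4 CPM (log2 -1.12 ± 0.08, adjusted p = 2.96e-09) and ATPsynE (log2 -0.75 ± 0.10), and COX7C, of the same complex as COX5B, moved the other way, as given above. Of 19 vacuolar ATPase subunits, which acidify synaptic vesicles and lysosomes, 14 were lower and 1 higher (6 and 0 without the block), with a median of -0.43. The 1 called higher, Vha100-2, missed the threshold in 16 of 20 settings. The proteolipid Vha16-1, the most abundant of the subunits, fell from 3532, 3158 and 3095 CPM to 1926, 2068 and 1931 CPM (log2 -0.73 ± 0.13).

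Of 14 glycolytic genes 7 were lower (2 without the block), led by Gpdh1 (-0.50 ± 0.07) and the aldolase Ald1 (-0.49 ± 0.08), and 0 higher by edgeR (0 at an unadjusted p under 0.05, 0 by DESeq2; median -0.26). Of 23 genes of the signal recognition particle and translocon, 11 were lower (2 without the block) and 0 higher by edgeR (0 at an unadjusted p under 0.05, 0 by DESeq2; median -0.35). All 3 Sec61 channel subunits were among them: Sec61alpha, of 476 codons, fell from 129, 159 and 141 CPM to 65.2, 84.5 and 78.0 CPM (log2 -0.92 ± 0.07, adjusted p = 9.80e-09), Sec61beta (log2 -0.93 ± 0.09) and Sec61gamma (log2 -1.18 ± 0.12, missing the threshold without the block). The log2 changes of Sec61alpha and of Sec61beta, which has 100 codons, differed by less than their standard errors.

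Of 33 chaperones, 13 were lower (4 without the block) and 0 higher by edgeR (1 at an unadjusted p under 0.05, 0 by DESeq2; median -0.15), with the small heat shock proteins Hsp23 (-0.92 ± 0.15) and Hsp26 (-0.84 ± 0.10) lowest. Of 32 proteasome subunits, 16 were lower and 1 higher (0 and 0 without the block; median -0.26). That count rested on single libraries: 6 subunits were lower without total RNA library 1, and 9, 7 and 10 without 80S monosome libraries 1, 2 and 3. Of 75 mitochondrial ribosomal proteins, 17 were lower and 1 higher (3 and 0 without the block; 8 lower without total RNA library 1 and 10 without 80S monosome library 2; median -0.20). The share lower, 22.7%, was near the 18.7% of all nuclear protein-coding genes tested, and the share higher was 1.33% against 16.2%.

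mRNAs made inside mitochondria are read by mitochondrial ribosomes, which are distinct from the cytoplasmic 80S. They were still present in the 80S fractions: mt:CoI stood at 17926, 17556 and 16612 CPM in total RNA, 15893, 17905 and 19150 CPM in 80S monosomes and 4988, 8677 and 5492 CPM in polysomes (log2 0.02 ± 0.14 for 80S monosomes, adjusted p = 0.929). Its 80S monosome and total RNA values overlapped, and its polysome values lay below both. The 13 mitochondrial mRNAs had a median of -0.45 in 80S monosomes and -2.02 in polysomes. In 80S monosomes 4 were lower, among them mt:ND3 (66.9, 71.5 and 65.0 CPM in total RNA, 33.0, 29.3 and 40.3 CPM in 80S monosomes, adjusted p = 1.09e-06), a count that ranged from 1 (without 80S monosome library 2, or without total RNA library 1) to 8 (without 80S monosome library 3). It was 2 without 80S monosome library 1 or total RNA library 3, 7 without polysome library 2, and 1 without the block. None was higher by edgeR (1 at an unadjusted p under 0.05, 0 by DESeq2). mt:Cyt-b had 6118, 6128 and 5477 CPM and 3263, 3681 and 4284 CPM without overlap and missed the threshold (adjusted p = 0.0203), but passed it without 80S monosome library 3 (7.98e-04), polysome library 2 (2.30e-05) or polysome library 3 (0.00831). The 2 mitochondrial ribosomal RNAs had positive log2 changes (median 1.27). They took 0.00741% ± 0.000779 of the counts in total RNA and 0.0179% ± 0.00225 in 80S monosomes, without overlap (SD, n = 3; exact two-sided permutation p = 0.1, the smallest this design allows). By edgeR 0 passed with the block, 2 without it and 2 at an unadjusted p under 0.05, and by DESeq2 2.

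Several neuronal mRNAs were lower in 80S monosomes and higher in polysomes than in the lysate. Of 35 synaptic genes, 13 were lower and 4 higher (5 and 1 without the block, and 2 higher without total RNA library 3). Their median log2 fold change was -0.17 in 80S monosomes and 0.29 in polysomes. Vmat, the transporter that fills vesicles with monoamines, had 487, 476 and 442 CPM in total RNA, 278, 229 and 222 CPM in 80S monosomes and 773, 591 and 684 CPM in polysomes (log2 -0.95 ± 0.08 for 80S monosomes, adjusted p = 1.76e-08). Snap25, a SNARE of vesicle fusion with only 212 codons, had 287, 308 and 277 CPM in total RNA, 188, 165 and 169.9 CPM in 80S monosomes and 304, 367 and 342 CPM in polysomes (log2 -0.74 ± 0.08, adjusted p = 5.20e-07). In both, the 80S monosomes lay below the other fractions with no overlap, and transposable element copies share the strand of Snap25. brp, the scaffold of the active zone, had 936, 886 and 862 CPM in total RNA, 908, 823 and 786 CPM in 80S monosomes and 1789.99, 1421 and 1628 CPM in polysomes, and passed the test only in polysomes (log2 -0.10 ± 0.08, adjusted p = 0.335 for 80S monosomes, and log2 0.85, adjusted p = 4.22e-08 for polysomes). Among the genes that rose was Synj (0.41 ± 0.08), a phosphatase of vesicle recycling, which missed the threshold without the block.

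Among ion channels and receptors, genes called lower made up 26.3% of voltage-gated channels, 20% of nicotinic subunits and 21.7% of GABA and glutamate genes. The share over all nuclear protein-coding genes tested was 18.7%. Genes called higher made up 5.26%, 0% and 8.70% of these lists, against 16.2%. Of 19 voltage-gated and related channels, 5 were lower and 1 higher (3 and 0 without the block, and 8 lower without polysome library 1). Besides para, Ca-alpha1T, the low-threshold calcium channel, fell from 442, 412 and 428 CPM to 208, 162 and 173 CPM and stood at 1084, 698 and 864 CPM in polysomes (log2 -1.25 ± 0.09 for 80S monosomes, adjusted p = 1.35e-09). cac, the calcium channel of the active zone, had 345, 326 and 309.8 CPM in total RNA, 246, 221 and 221 CPM in 80S monosomes and 776, 565 and 636 CPM in polysomes (log2 -0.51 ± 0.08, adjusted p = 2.22e-05). nAChRalpha1, an acetylcholine receptor subunit of 567 codons, had 234, 227 and 207 CPM in total RNA, 149, 129.7 and 119 CPM in 80S monosomes and 402, 354 and 376 CPM in polysomes (log2 -0.76 ± 0.07, adjusted p = 9.12e-08). All 3 had the order of hiw, with 80S monosomes lowest and polysomes highest. Of 10 nicotinic subunits 2 were lower (1 without the block, and 1 without 80S monosome library 1 or 2, total RNA library 2 or polysome library 3) and 0 higher by edgeR (0 at an unadjusted p under 0.05, 0 by DESeq2), and of 23 GABA and glutamate genes 5 were lower and 2 higher (3 and 0 without the block), the lower ones led by the glial transporters Gat (-0.96 ± 0.07) and Eaat1 (-0.62 ± 0.08). Those called higher, GluClalpha and GABA-B-R2, were both lost when any 1 of 80S monosome libraries 1 and 2, the total RNA libraries and polysome library 3 was left out, and 1 gene of the list was called higher without polysome library 1 or 2.

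Most precursors of neuropeptides, short secreted proteins, were lower in 80S monosomes. Of 33, 20 were lower (12 without the block) and 0 higher by edgeR (0 at an unadjusted p under 0.05, 0 by DESeq2), with medians of -0.59 in 80S monosomes and -0.32 in polysomes. Nplp3 fell from 2719, 3461 and 3119 CPM to 901, 1753 and 1474 CPM (log2 -1.23 ± 0.10, adjusted p = 3.78e-08) and Ms, the myosuppressin precursor, from 40.1, 55.0 and 45.6 CPM to 12.7, 23.1 and 20.2 CPM (log2 -1.35 ± 0.11). SIFa, a peptide of a few brain cells, was also lower in 80S monosomes (2.74-fold, adjusted p = 5.26e-06), while its polysome level of 2.46, 3.17 and 3.79 CPM overlapped that of total RNA (2.40, 3.25 and 3.10 CPM). Pdf, the peptide of the clock neurons, had 12.4, 15.7 and 13.4 CPM and 8.43, 15.2 and 14.7 CPM, overlapping ranges (adjusted p = 0.4).

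The long genes of axons and cell adhesion moved both ways. Of 36, 10 were higher and 14 lower (5 and 10 without the block). Dscam3, a cell recognition protein of 2042 codons, rose from 54.1, 47.9 and 48.8 CPM to 123, 92.1 and 83.8 CPM (log2 0.97 ± 0.08, adjusted p = 1.05e-08), and beta-Spec, the membrane skeleton protein of 2291 codons, from 620.4, 582 and 602 CPM to 1330.1, 949 and 928 CPM (log2 0.81 ± 0.09). kug, a Fat-like cadherin of 4689 codons, fell from 361, 335 and 350.4 CPM to 203, 171 and 190.3 CPM (log2 -0.90 ± 0.08, adjusted p = 4.21e-08). In polysomes all 3 were above total RNA, by 0.65, 0.50 and 1.02.

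Clock and activity-regulated genes, mostly transcription factors, were higher where called: 7 of 18 (2 without the block; median 0.16), with 0 lower by edgeR (0 at an unadjusted p under 0.05, 0 by DESeq2). kay, the fly Fos, rose from 688, 432 and 507 CPM to 1417, 791 and 864 CPM (log2 0.90 ± 0.08, adjusted p = 2.07e-08, lost without the block), and the clock gene per from 49.1, 46.2 and 46.6 CPM to 89.1, 67.9 and 58.0 CPM (log2 0.58 ± 0.08, adjusted p = 1.46e-05). Arc1, whose capsid-like protein carries its own mRNA between cells, had the largest gap between the ribosomal fractions of the genes in this list, with 2675, 1990.3 and 2037 CPM in total RNA, 5779, 2493 and 2533 CPM in 80S monosomes and 499.5, 418 and 330.2 CPM in polysomes. Against total RNA its increase in 80S monosomes missed the threshold (log2 0.60 ± 0.19, adjusted p = 0.0385) and passed it without 80S monosome library 2 (adjusted p = 4.96e-04). Its decrease in polysomes passed (log2 -2.43, adjusted p = 4.69e-05), as did 80S monosomes against polysomes (log2 3.03, adjusted p = 2.89e-05).

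In the eye, ninaE, a photoreceptor gene, fell from 14086, 12688 and 11495 CPM to 8762, 8136 and 7349 CPM (log2 -0.66 ± 0.09, adjusted p = 4.38e-06), the largest drop in CPM of any nuclear mRNA tested. trp, the light-activated channel, went from 1733, 1789 and 1685 CPM to 2692, 2235 and 1962 CPM (log2 0.40 ± 0.09, adjusted p = 9.57e-04), but missed the threshold without 80S monosome library 1 (adjusted p = 0.0134), without total RNA library 2 (0.0182) and without the block. Of 33 phototransduction genes, 9 were lower and 1 higher (2 and 0 without the block; median -0.12). That is 27.3% and 3.03%, against 18.7% and 16.2% of all nuclear protein-coding genes tested. In glia, repo, the glial transcription factor, rose from 43.3, 45.1 and 44.5 CPM to 82.5, 65.5 and 54.6 CPM (log2 0.59 ± 0.09, adjusted p = 3.26e-05), and nrv2, a subunit of the sodium pump, fell from 608, 635 and 584 CPM to 281, 345 and 318 CPM (log2 -0.96 ± 0.08). Of 20 glial genes 3 were higher and 6 lower (2 and 3 without the block; median -0.09). Their shares, 15% and 30%, compare with 16.2% and 18.7% of all nuclear protein-coding genes tested. elav, the neuronal RNA-binding protein, rose from 334, 318 and 294 CPM to 416, 387 and 364 CPM (log2 0.30 ± 0.07, adjusted p = 0.00128), without overlap, but missed the threshold without the block, without 80S monosome library 2 (adjusted p = 0.0149), and without total RNA library 2 (0.0293) or 3 (0.064).

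Muscle of the head gave opposite changes within the sarcomere. Mhc, the motor of the thick filament with 1962 codons, rose from 4332, 3344 and 3589 CPM to 9210.5, 5001 and 5309 CPM (log2 0.75 ± 0.10, adjusted p = 3.59e-06, lost without the block). Mlc2, its regulatory light chain with 222 codons, fell from 4774, 3608 and 4212 CPM to 1996, 2138 and 2513 CPM (log2 -0.93 ± 0.11, adjusted p = 2.53e-06), and sls fell as given above. Of 26 muscle genes, 14 were lower and 4 higher (10 and 0 without the block, and 2 higher without total RNA library 2; median -0.38). In the list of fat body and secreted genes, ACC and FASN2, large enzymes of fatty acid synthesis, rose by log2 0.73 ± 0.08 and 0.86 ± 0.13. The short secreted stress peptide TotA fell (log2 -1.13 ± 0.09, lost without the block). The cell types behind these changes were not tested. Of 30 fat body and secreted genes 9 were lower and 3 higher (0 and 2 without the block; median -0.14). Their shares, 30% and 10%, compare with 18.7% and 16.2% of all nuclear protein-coding genes tested. Yp1, a yolk protein made in female fat body, had 8404, 11544 and 12615 CPM and 7314, 10272 and 10674 CPM, overlapping ranges (adjusted p = 0.0413).

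Among other secreted proteins more genes were called lower than higher. Of 14 antimicrobial peptide genes 10 were lower (3 without the block) and 0 higher by edgeR (0 at an unadjusted p under 0.05, 0 by DESeq2), with a median of -0.79, for example AttA (log2 -1.23 ± 0.16). Of 42 cuticle proteins of the Cpr family 18 were lower and 1 higher (6 and 0 without the block; median -0.55), led by Cpr62Bc, from 230.5, 255 and 279 CPM to 71.8, 103 and 107 CPM (log2 -1.46 ± 0.08, adjusted p = 3.70e-11). Of 34 odorant binding proteins 13 were lower and 2 higher (0 and 1 without the block, and 8 lower without total RNA library 1; median -0.20). Obp99b, as given above, was one of those that rose.

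Genes of tissues outside the head were looked at as a check on the dissection. Of 29 ovary and egg genes, 16 were tested, and 4 were higher and 2 lower (1 and 1 without the block, and 2 higher without 80S monosome library 1, total RNA library 1 or total RNA library 2, and 1 lower without 80S monosome library 3, total RNA library 1 or total RNA library 3). The list summed to 686 to 828 CPM in total RNA and 1655 to 2041 CPM in 80S monosomes, almost all of it from tud, a germ granule protein gene that the head also expresses (779.5, 626 and 666 CPM and 1962, 1569 and 1582 CPM, log2 1.30 ± 0.08). The oocyte genes osk (4.10, 6.72 and 12.7 CPM and 8.01, 9.39 and 14.9 CPM) and grk (18.9, 18.6 and 15.8 CPM and 10.6, 10.7 and 11.1 CPM) were low. osk passed the test as higher, with overlapping libraries, and grk as lower. The part of RNA from tissue outside the head in these values was not tested. Of the testis and gut lists 6 and 5 genes were tested and 0 of either were called by edgeR or by DESeq2 (1 of the testis genes and 0 of the gut genes were higher at an unadjusted p under 0.05, 0 and 0 lower).

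Most small RNAs of the nucleus were scarcer in 80S monosomes. Small nucleolar RNAs, which guide modification of ribosomal RNA in the nucleolus, were lower for 148 of 172 and higher for 1, with a median log2 fold change of -1.87. Small nuclear RNAs, the RNA core of the spliceosome, were lower for 25 of 29 (median -2.36) and higher for 0 by edgeR (0 at an unadjusted p under 0.05, 0 by DESeq2). Over all features 19.2% were lower and 15.3% higher. snoRNA:185 fell from 208, 219 and 206 CPM to 7.13, 9.64 and 13.7 CPM (log2 -4.37 ± 0.14, adjusted p = 9.62e-10), and snoRNA:Me18S-C1366 from 17.1, 25.4 and 19.9 CPM to 0.208, 0.910 and 0.826 CPM (log2 -4.88 ± 0.17). snRNA:U5:38ABb, of the U5 particle, fell from 20.2, 17.6 and 18.6 CPM to 1.35, 1.18 and 1.38 CPM (log2 -3.84 ± 0.16), snRNA:7SKa, which restrains transcription elongation, also fell (log2 -3.47 ± 0.09), and RNaseP:RNA, the catalytic RNA that trims tRNA precursors, from 1162, 1003 and 1108 CPM to 124, 71.9 and 75.5 CPM (log2 -3.64 ± 0.15, adjusted p = 3.78e-08). snoRNAs as a class took 0.185% ± 0.00933 of the counts in total RNA and 0.0538% ± 0.00751 in 80S monosomes, and snRNAs 0.428% ± 0.0539 and 0.0886% ± 0.0225 (SD, n = 3; exact two-sided permutation p = 0.1 for each, the smallest possible).

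The cytoplasmic 7SL RNA of the signal recognition particle did not pass the test, with 13358, 10352 and 12110.3 CPM in total RNA and 17028, 5141 and 9952 CPM in 80S monosomes for 7SLRNA:CR32864 (log2 -0.33 ± 0.33, adjusted p = 0.484). Its 80S monosome libraries spread more than 3-fold, on both sides of total RNA. Ribosomal RNA left by the depletion took 0.417%, 0.618% and 0.711% of the counts in total RNA and 2.56%, 5.49% and 3.84% in 80S monosomes (exact two-sided permutation p = 0.1), without overlap. The rRNA pseudogenes 28SrRNA-Psi:CR45859 (2.58 ± 0.41) and 28SrRNA-Psi:CR40596 (2.56 ± 0.43), which share reads with the 28S rRNA, were also higher, at adjusted p = 0.00813 and 0.00977. Both missed the threshold when any 1 of 80S monosome libraries 2 and 3, polysome library 2 and the 3 total RNA libraries was left out (for 28SrRNA-Psi:CR45859, adjusted p = 0.041 without 80S monosome library 2).

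**Figure D4:**
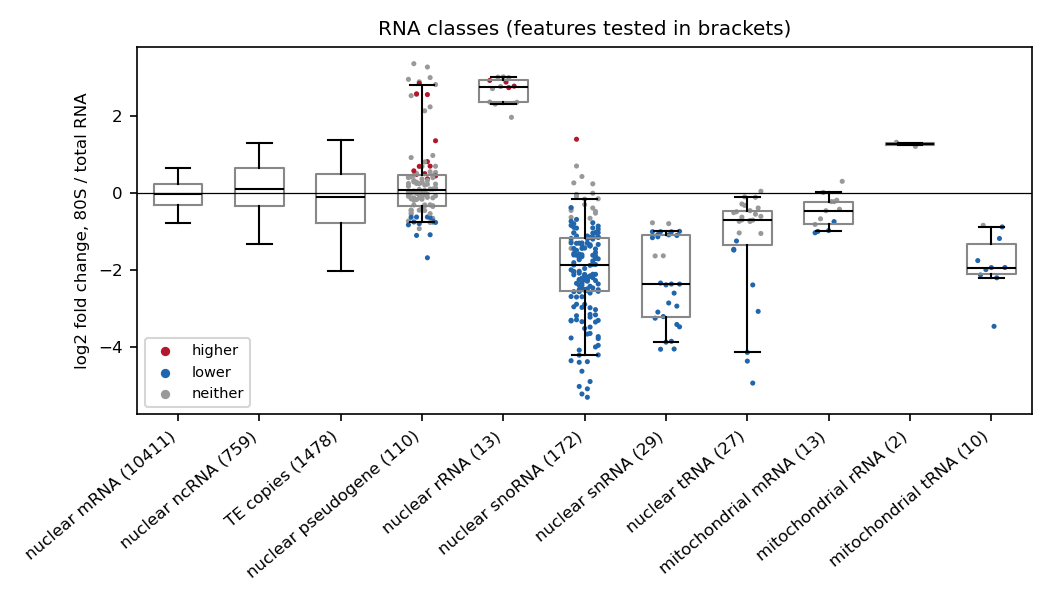
Log2 fold change in 80S monosomes against total RNA (y axis) by RNA class (x axis, features tested in brackets; TE, transposable element). Boxes are quartiles with the median, whiskers the 5th and 95th percentiles; points are single features, for classes of under 200, in red where called higher, blue where called lower and grey otherwise. Small nucleolar, small nuclear and mitochondrial transfer RNAs lie mainly below 0 and ribosomal RNAs above it, while the mRNA median is at -0.02.

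Long non-coding RNAs were called in both directions. Of 439 tested, 66 were higher and 39 lower (32 and 20 without the block; median 0.09). Of 204 antisense RNAs, 33 were higher and 3 lower (12 and 1 without the block; median 0.44). The shares higher, 15.03% of long non-coding and 16.18% of antisense RNAs, were near the 15.3% of all features tested. The shares lower were 8.88% and 1.47%, against 19.2% of all features tested. Of the 116 other RNAs annotated as non-coding, with a median length of 69 nt, 7 were higher and 29 lower. The 2 RNAs that coat the male X chromosome for dosage compensation went apart. lncRNA:roX1, the longer, rose from 780.2, 512 and 635 CPM to 1632, 994 and 1151 CPM (log2 0.96 ± 0.08, adjusted p = 1.16e-08), and lncRNA:roX2, the shorter, fell from 120.1, 90.7 and 93.5 CPM to 19.3, 12.4 and 14.5 CPM (log2 -2.74 ± 0.09, adjusted p = 3.95e-14). In polysomes both were lower than in total RNA, at 407, 264 and 362 CPM and 6.07, 4.86 and 6.55 CPM. Neither RNA is known to be translated. lncRNA:Hsromega, of nuclear stress bodies, fell from 2076, 1516 and 1796 CPM to 1353, 1007 and 1175 CPM (log2 -0.61 ± 0.08, lost without the block), and lncRNA:noe, a transcript of the nervous system, from 5083, 3789.9 and 3975 CPM to 1878, 1575 and 1725 CPM (log2 -1.31 ± 0.09, adjusted p = 8.13e-10). Among the largest increases were lncRNA:CR43126 (6.87, 4.71 and 4.77 CPM to 21.5, 16.7 and 17.0 CPM, log2 1.77 ± 0.11), lncRNA:CR44779 (1.72) and lncRNA:CR45361 (1.65), the last 2 overlapped by other features on their strand.

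The long and antisense RNAs also differed by length, a split chosen after seeing the data. Those of over 300 to 500 nt had a median of -0.01 (11 higher and 7 lower of 96), those of over 1500 to 3000 nt 0.44 (24 and 6 of 109), and those of over 3000 to 6000 nt 0.64 (19 higher and 0 lower of 36 by edgeR, 0 lower at an unadjusted p under 0.05 and 0 by DESeq2). Pair medians of the last group were 0.70, 0.54 and 0.58. mRNAs sorted by spliced length had medians of -0.34 at over 500 to 1000 nt, 0.32 at over 4000 to 6000 nt and -0.24 above 10000 nt. The rise with length up to a few kilobases was seen in RNAs annotated with a CDS and in RNAs annotated with none, and the parts of CDS and transcript length in it were not tested.

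**Figure D5:**
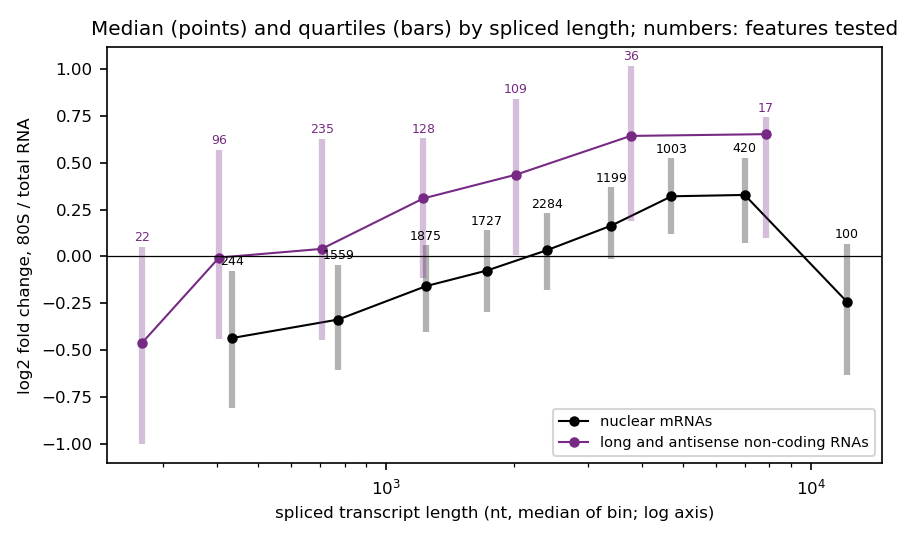
Log2 fold change in 80S monosomes against total RNA (y axis) by spliced transcript length in nt (x axis, logarithmic, median of each bin) for nuclear mRNAs (black) and nuclear long and antisense non-coding RNAs (purple). Points are medians over features, bars are quartiles and numbers are features tested. Both curves climb up to a few kilobases, and the last mRNA bin, over 10000 nt, falls below 0.

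Of the nuclear transfer RNAs 8 of 27 were lower (median -0.70), as were 9 of 10 mitochondrial ones (median -1.93).

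Copies of transposable elements were called in both directions, 176 higher and 275 lower of 1478 (median -0.11, and 0.71 in polysomes). Their shares, 11.9% and 18.6%, compare with 15.3% and 19.2% over all features tested. As reads that map to several copies, or to a copy and its host gene, were split between them, single copies are not described.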

How the data were processed

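RNA was sequenced from fly heads as 3 libraries each of total RNA, 80S monosomes and polysomes. Per the labels and the study's methods, the authors trimmed reads with Trimmomatic 0.33, aligned them to the BDGP6 assembly with STAR 2.7.10a and counted them by strand with featureCounts 2.0.1, splitting multi-mapped and overlapping reads into fractions. The deposited values are thus estimated counts per feature (39.8% of the values in the 6 libraries were not whole), which were rounded for the tests.

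Groups and replicate numbers came from the labels. Gene classes, lengths and coordinates came from an Ensembl annotation of BDGP6 (BDGP6.54, release 115), and features it did not match held 0.29% of the counts. All 9 libraries were fitted with edgeR 4.0.16 in R 4.3.3 (TMM scaling, filterByExpr, robust quasi-likelihood test) with the replicate number as a block. P-values were Benjamini-Hochberg adjusted over all features, with a threshold of 0.01. DESeq2 1.42.0 was an alternative, as were other scalings and filters, a fit of the 6 libraries alone, and leaving out each library or replicate number. Pairing was checked by correlating deviations from group means: 9 pairs of libraries with the same number gave 0.18 to 0.42, and 18 pairs with different numbers gave -0.33 to -0.00416.

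Genes were named by rule: in each direction the 10 nuclear protein-coding genes of largest change (adjusted p under the threshold, at least 10 CPM on average, the same direction in 3 pairs), 5 other features, up to 3 members of each list, and a set of chosen genes, of which a selection is described. The members and lists were chosen with earlier results of these data known. Scripts were tested on simulated data. Shares of counts were compared by exact permutation (SciPy 1.17.1), without the pairing by replicate number. Sequence motifs were not analysed here.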

Additional observations from a re-analysis of the deposited data

How the results depend on the processing

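The counts depended most on the pairing. Without the replicate block 689 genes were higher and 764 lower, against 1687 and 1951 with it. Leaving out 1 library or 1 replicate number gave 1098 to 1650 genes higher and 1460 to 1981 lower, with the fewest higher without replicate 2. DESeq2 called 1824 and 1986 with the block and 1310 and 1323 without it, a smaller drop than that of edgeR. The list counts given without the block are those of edgeR. The median for CDSs over 5000 codons was -0.71 with at least 1 CPM in all 6 libraries and -0.84 to -0.76 with libraries left out, checks chosen after seeing the data. The testis median turned from 0.27 to -0.086 without the filter on low counts.

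Of the named genes, 3 changed sign, none of them called in any of those settings. Rack1 was 0.0019 by DESeq2 without the block, 0.0083 with scaling on protein-coding genes and 0.0044 with at least 1 CPM throughout, and -0.15 to 0.074 with libraries left out. Pdf ranged over -0.27 to 0.040 with libraries left out. mt:CoI was -0.0023 without the filter and -0.14 to 0.19 with libraries left out. A further 64 named genes missed the threshold in at least 1 setting. Causes were not tested. Genes of a few CPM, and features that share reads with copies, are measured with the least precision.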
